A study of Mus musculus with 6 samples.

Results

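The mouse mitochondrial genome carries 37 genes, and all of them were among the 60193 genes of the deposited expression matrix. They were taken as the rows whose gene name starts with mt-, and they comprise 13 mRNAs, 2 rRNAs and 22 tRNAs. On the GRCm39 assembly this circular chromosome is 16299 bases long. The matrix gives FPKM, in which the fragments sequenced from a gene are set against transcript length and library size. RNA-seq had been done on metaphase II (MII) oocytes from ICR mice aged 42 to 45 weeks, in 3 libraries per group, each made from oocytes pooled from several mice. For IVM, germinal vesicle oocytes of mice primed with PMSG were stripped of cumulus cells and matured in vitro in M16 medium. For IVO, mice received hCG after the same priming, and ovulated oocytes were taken from the oviduct and freed of cumulus cells with hyaluronidase. No young mice, and no oocytes cultured with their cumulus cells, were among these 6 libraries, so the comparison is between 2 routes of maturation at 1 reproductive age.

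The mitochondrial genome encodes core subunits of the respiratory chain and of ATP synthase, together with the rRNAs and tRNAs needed to translate them inside the organelle. Both strands are transcribed as long precursors, in which tRNAs punctuate the other genes and mark the sites where the precursor is cut. Most of the resulting mRNAs receive a short poly(A) tail from Mtpap, and the Lrpprc and Slirp proteins bind and stabilise them. The oocyte is the source of the mitochondria of the embryo and holds a large stock of mitochondrial DNA and RNA.

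The depth behind each library, read from the spacing of its low FPKM values, was 16500000 to 19300000 fragments in IVM and 17800000 to 18300000 in IVO libraries. Fragments averaged 205 to 220 bases in the IVM libraries (mean 211.7, SD 7.64, n = 3). The IVO libraries had longer ones, of 250 to 270 bases (mean 256.7, SD 11.5, n = 3). For a transcript of 1000 bases, 3 fragments were worth 0.196 to 0.233 FPKM, a floor that covers counting error only. All 8 oocyte markers examined were expressed, with summed FPKM of 14340 to 17140 in IVM and 13840 to 17180 in IVO libraries. Oosp1 made up most of these sums, at 10146 to 14047 FPKM in IVM and 11971 to 15158 in IVO libraries. The median log2FC of the 8 (IVO against IVM) was -1.48, beside -0.30 over all tested genes. Of them 4 (Zp1, Zp2, Zp3 and Nlrp5) were called lower in IVO (a log2FC of at most -1 and an adjusted p under 0.05 in limma), against 17.9% of all tested genes. The 13 cumulus and granulosa markers summed to 24.1 to 33.8 FPKM in IVM and 30.8 to 36.5 in IVO libraries, with Amh at 0 in every library. Of these markers 2 (Cyp19a1 and Fshr) were high enough to test, and limma gave 0 of the 2 in either direction, also before adjustment at a p-value of 0.05. Among the untested ones, all under 1 FPKM, Gja1, Has2, Ptx3 and Tnfaip6 were higher in every IVO library. Gja1 had 0.02 to 0.05 FPKM in IVM and 0.24 to 0.86 in IVO libraries. Inha, Cyp11a1, Inhba, Star and Foxl2 had a lower mean in IVO and Ptgs2 a higher one, all with overlapping groups. The part of these markers in the differences of the mitochondrial genes was not tested. The 4 haemoglobin genes summed to at most 0.98 FPKM in IVM and 5.82 in IVO libraries, the 2 leukocyte markers to at most 0.53 and 3.59, and the 3 oviduct markers to at most 3.16 and 5.66.

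Some mitochondrial genes share bases with each other, and a long stretch of the mitochondrial genome has a near-identical copy in the nuclear genome. Both matter for how fragments are assigned, so the sequences are shown here. The reading frames of mt-Atp8 and mt-Atp6, which lie on 1 bicistronic mRNA, overlap by 43 bases, given in capitals in the following window at chrM:7917-7979 on the plus strand (GRCm39).
mt-Atp8 and mt-Atp6: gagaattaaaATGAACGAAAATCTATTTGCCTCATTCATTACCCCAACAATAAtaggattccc
The genes mt-Nd4l and mt-Nd4, also on 1 mRNA, overlap by 7 bases, in capitals at chrM:10157-10183.
mt-Nd4l and mt-Nd4: acctactacaATGCTAAaaattattct
The minus strand of chromosome 1 from 24650616 to 24655269 aligns to positions 6390 to 11042 of the mitochondrial genome over 4654 columns with 99.936% identity. Over this stretch, from the end of mt-Co1 to the first part of mt-Nd4, the 2 sequences differ by 2 substitutions and 1 gap. The substitution T9461C (mitochondrial base, position on chrM, then base of the copy) lies in mt-Nd3 and is in capitals in the windows chrM:9441-9481 on the plus strand and chr1:24652178-24652218 on the minus strand.
mt-Nd3: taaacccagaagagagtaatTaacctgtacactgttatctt
chromosome 1 copy of mt-Nd3: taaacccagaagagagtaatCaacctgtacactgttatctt
The substitution A6393T lies in mt-Co1, close to the end of the alignment, in the windows chrM:6390-6413 on the plus strand and chr1:24655246-24655269 on the minus strand.
mt-Co1: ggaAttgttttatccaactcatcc
chromosome 1 copy of mt-Co1: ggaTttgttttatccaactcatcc
The gap lies in the arginine tRNA gene mt-Tr, at position 9828. The sequences of mt-Co2, mt-Atp8, mt-Atp6, mt-Co3 and mt-Nd4l, which lie within the alignment, matched without a single difference. By the reference sequences, fragments within these genes cannot be told apart. The sequences of the ICR mice themselves were not examined.

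All 22 tRNA genes were listed at 0 in each of the 6 libraries. They are 59 to 75 bases long (median 68.5), and 14 are transcribed in the direction of most mRNAs while 8 (mt-Tq, mt-Ta, mt-Tn, mt-Tc, mt-Ty, mt-Ts1, mt-Te and mt-Tp) are transcribed from the other strand. The shortest was the serine tRNA mt-Ts2, at chrM:11613-11671 on the plus strand, and mt-Tr, the tRNA that holds the gap of the nuclear copy, lies at chrM:9808-9875 on the plus strand.
mt-Ts2: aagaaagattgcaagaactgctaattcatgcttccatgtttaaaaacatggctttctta
mt-Tr: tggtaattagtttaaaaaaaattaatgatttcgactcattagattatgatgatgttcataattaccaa
Such values were not particular to the mitochondrial genome. Of the 932 listed genes of at most 75 bases, 9 (0.966%) were above 0 in any library, and of the 974 genes of 76 to 99 bases 7 were (0.719%). The share was 5.36% for genes of 100 to 149 bases and 56.2% for genes of 200 to 299 bases, a class that includes mt-Atp8 and mt-Nd4l. At the inferred fragment lengths a transcript of 75 bases has almost no position for a whole fragment (an effective length of at most 0.3 bases), so a value of 0 gives no upper limit for the tRNAs, and their levels were not measured by these files. The tRNAs do not enter any of the comparisons.

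The 13 mRNAs and both rRNAs were above 0 in all 6 libraries. Together the mRNAs summed to 29990 ± 7426 FPKM (SD, n = 3) in IVM and 55062 ± 8788 FPKM (SD, n = 3) in IVO libraries, a ratio of 1.84. The sums were 22261, 37070 and 30640 FPKM in IVM1 to IVM3 and 56491, 63048 and 45647 in IVO1 to IVO3, so every IVO library lay above every IVM library. As a share of all FPKM, the mRNAs took 1.06%, 1.76% and 1.68% in IVM and 3.62%, 4.04% and 2.78% in IVO libraries. Since the values are relative within a library, more mitochondrial mRNA per oocyte and less of other RNA cannot be told apart, and the pooled oocytes do not show whether all oocytes of a pool were alike. The SMART-Seq v4 kit also primes cDNA at poly(A) tails, so these values depend on the tailing of mitochondrial and other mRNAs. The part of tailing in them was not tested. IVM1 had the lowest IVM value for all 15 detected genes, and IVO3 the lowest IVO value for 13 of them.

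**Figure D1:**
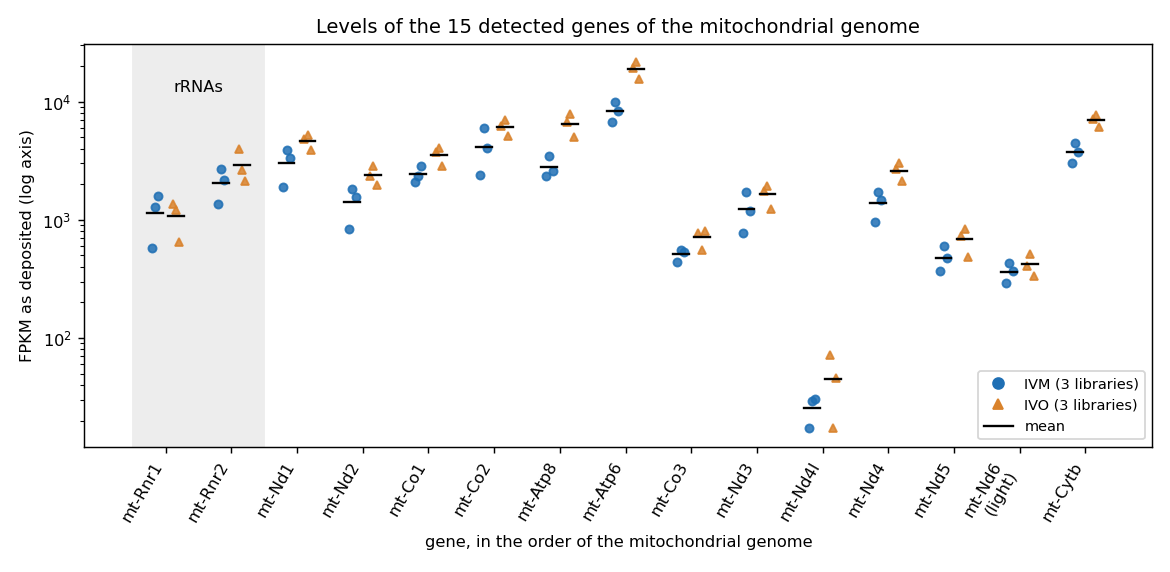
FPKM as deposited of the 15 detected genes, on a log axis, with genes in the order of the mitochondrial genome. Each circle is an IVM library, each triangle an IVO library and each black line the mean of 3 libraries. mt-Atp6 was highest in every library, mt-Nd4l lowest, and the IVO triangles lie above the IVM circles without overlap for 7 of the 13 mRNAs but for neither rRNA.

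Differences were tested with limma on log2(FPKM + 1) in the 18818 genes whose FPKM averaged at least 1, and a gene was called at a log2FC of at least 1 or at most -1 with an adjusted p-value under 0.05. All 13 mRNAs had a positive log2FC (IVO against IVM), from 0.20 to 1.21 with a median of 0.64, while the median over all tested genes was -0.30 and 34.0% of them had a positive one. Of the mRNAs, 2 (mt-Atp6 and mt-Atp8) were called higher in IVO, against 0.606% of all tested genes called higher. Without the threshold on the fold change 4 mRNAs (these and mt-Cytb and mt-Nd4) rose, against 1.87% of all tested genes. The 3 IVO values lay above the 3 IVM values in 7 of the 13 mRNAs, against 9.62% of all tested genes. None of the 15 was called lower, against 17.9% of all tested genes, and before adjustment limma gave 8 mRNAs higher, 0 lower and 0 rRNAs in either direction at a p-value under 0.05. With median-ratio scaling, which moved the median over all tested genes to -0.04, 5 mRNAs were called higher, against 2.05% of all tested genes under that scaling.

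The 2 mitochondrial subunits of ATP synthase (complex V) had the largest log2FC of the mRNAs with FPKM as deposited. mt-Atp6 (chrM:7927-8607), a membrane subunit of the proton channel, had 6757, 9871 and 8392 FPKM in the IVM libraries and 19118, 21542 and 15516 in the IVO libraries. The groups were far apart, and the log2FC was 1.17 (standard error 0.18, adjusted p = 0.00599). It ranked between 7 and 20 among all genes in the IVM libraries and between 2 and 4 in the IVO libraries. mt-Atp8 (chrM:7766-7969), a small stalk subunit translated from the same mRNA, had 2357, 3497 and 2592 FPKM in IVM and 6667, 7822 and 5061 in IVO libraries. Again no library of one group fell within the other, and the log2FC was 1.21 (standard error 0.22, adjusted p = 0.00908). The ratio of mt-Atp8 to mt-Atp6 was 0.309 to 0.354 in IVM and 0.326 to 0.363 in IVO libraries and overlapped. On the scale of fragments without length normalization, described further on, mt-Atp6 kept its difference and mt-Atp8 did not.

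mt-Cytb (chrM:14145-15288), cytochrome b of complex III and the only subunit of that complex encoded here, stood at 3052, 4496 and 3745 FPKM in IVM and at 7135, 7692 and 6163 in IVO libraries. Its lowest IVO value was above its highest IVM value, with a log2FC of 0.91 (95% interval from 0.50 to 1.32, adjusted p = 0.0117). Its adjusted p stayed under 0.05 when any 1 library was left out, from 0.0196 to 0.0456.

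Complex I, the NADH dehydrogenase that feeds electrons into the chain, takes 7 subunits from the mitochondrial genome. Of these mt-Nd4 (chrM:10167-11544) rose, with 968, 1724 and 1477 FPKM in IVM and 2697, 3012 and 2127 in IVO libraries, a log2FC of 0.94 (standard error 0.25, adjusted p = 0.0328). The groups were separate, but the adjusted p passed 0.05 without IVM1 (0.0774), IVM3 (0.0759), IVO1 (0.0883) or IVO2 (0.102). mt-Nd2 (chrM:3914-4951) had 841, 1812 and 1561 FPKM in IVM and 2363, 2874 and 1977 in IVO libraries (log2FC 0.83, standard error 0.30, adjusted p = 0.0893). mt-Nd1 (chrM:2751-3707) had 1904, 3919 and 3316 FPKM in IVM and 4830.4, 5178 and 3932 in IVO libraries (log2FC 0.66, standard error 0.27, adjusted p = 0.125). For both, the IVO values lay above the IVM values, in mt-Nd1 only narrowly, and neither passed the test. mt-Nd5 (chrM:11742-13565) overlapped, at 366, 597 and 472 FPKM in IVM and 734, 833 and 485 in IVO libraries (log2FC 0.51, adjusted p = 0.215). mt-Nd3 (chrM:9459-9806) also overlapped, at 779, 1734 and 1188 FPKM in IVM and 1769.8, 1929 and 1227 in IVO libraries (log2FC 0.46, adjusted p = 0.336). mt-Nd4l (chrM:9877-10173) was by far the lowest of the mRNAs, at 17.3, 29.5 and 30.3 FPKM in IVM and 71.7, 17.2 and 45.6 in IVO libraries (log2FC 0.61, adjusted p = 0.433). The remaining subunit, mt-Nd6, is the sole mRNA of the other strand and is described with the strands.

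Complex IV, cytochrome c oxidase, takes its 3 catalytic core subunits from this genome, and none passed the test. mt-Co1 (chrM:5328-6872), which holds the site of oxygen reduction, had 2086, 2367 and 2877 FPKM in IVM and 3717, 4019 and 2828 in IVO libraries (log2FC 0.52, standard error 0.19, adjusted p = 0.0883). IVO3 fell just below the highest IVM library. mt-Co2 (chrM:7013-7696), which accepts electrons from cytochrome c, had 2398, 6036 and 4084 FPKM in IVM and 6205, 7055 and 5149 in IVO libraries (log2FC 0.64, standard error 0.32, adjusted p = 0.195). mt-Co3 (chrM:8607-9390) was listed much lower, at 441, 559 and 535 FPKM in IVM and 773, 561 and 804 in IVO libraries (log2FC 0.47, standard error 0.19, adjusted p = 0.130). Its groups were separate only narrowly. Summed by complex, the complex V mRNAs did not overlap between groups (9114 to 13368 FPKM in IVM, 20577 to 29363 in IVO), whereas those of complex I (5169.5 to 10244 against 10126 to 14358) and complex IV (4925 to 8962 against 8781 to 11635) overlapped. With the nuclear copies described further on added, the complex I sums no longer overlapped (6976 to 12886 against 13727 to 20299), and those of complex IV still did.

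The rRNAs, which form the core of the mitochondrial ribosome, did not separate the groups. mt-Rnr1 (the small subunit rRNA, chrM:70-1024) had 575, 1281 and 1581 FPKM in IVM and 1367, 1205 and 644 in IVO libraries. The groups covered nearly the same range, and the log2FC was -0.04 (standard error 0.43, adjusted p = 0.955) with a wide 95% interval from -1.06 to 0.97. This sign is not fixed, since median-ratio scaling gave a log2FC of 0.28 and quantile normalization one of 0.37. mt-Rnr2 (the large subunit rRNA, chrM:1094-2675) had 1351, 2677 and 2156 FPKM in IVM and 3947, 2658 and 2133 in IVO libraries, with a log2FC of 0.51 (standard error 0.31, adjusted p = 0.287). The 2 rRNAs come from the same precursor, yet the ratio of mt-Rnr2 to mt-Rnr1 varied within each group, at 2.35, 2.09 and 1.36 in IVM and 2.89, 2.21 and 3.31 in IVO libraries. The rRNA sum over the mRNA sum was 0.0865, 0.107 and 0.122 in IVM and 0.0941, 0.0613 and 0.0608 in IVO libraries, where IVO1 lay above the lowest IVM library. The SMART-Seq v4 kit starts cDNA synthesis at poly(A) tails, so an rRNA level here depends on tailed or internally primed rRNA, and the part of tailing in these values was not tested.

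**Figure D2:**
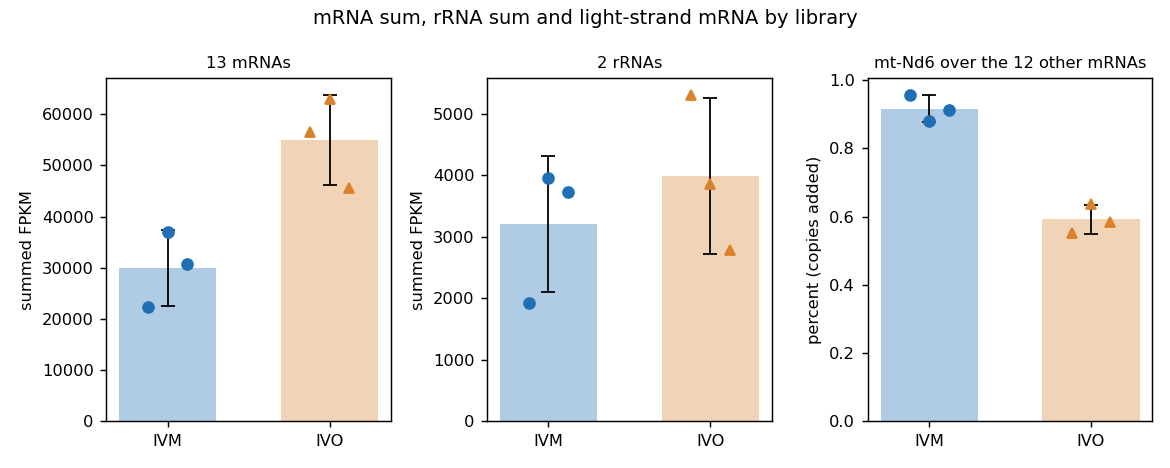
Summed FPKM of the 13 mRNAs, summed FPKM of the 2 rRNAs, and mt-Nd6 as a percentage of the other 12 mRNAs with nuclear copies added, by group. Points are libraries, bars are means and error bars are SD (n = 3). The mRNA sums do not overlap (22261 to 37070 in IVM, 45647 to 63048 in IVO), the rRNA sums do, and the mt-Nd6 percentage is lower in every IVO library.

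Part of the FPKM over sequences shared with the mitochondrial genome was listed under nuclear copies. Of the 12 pseudogenes of the annotation that overlap a match of at least 200 bases and 95% identity, 6 were listed at 0 in all libraries and 6 had a mean FPKM of at least 1. Gm28437, on chromosome 1 from 24652270 to 24653052, is identical to mt-Co3 over 783 of its 784 bases. It was listed at 4414, 6809.8 and 5431 FPKM in IVM and 8821, 8342 and 5523 in IVO libraries, so that 9.11%, 7.60% and 8.99% of the joint FPKM stood under mt-Co3 in IVM and 8.07%, 6.31% and 12.7% in IVO libraries. Gm10222 (chromosome 1, 24651488 to 24651781), identical to 294 of the 297 bases of mt-Nd4l, left between 0.899% and 4.15% of the joint FPKM under mt-Nd4l. Gm28438 (chromosome 1, 24651856 to 24652200), the copy of mt-Nd3, had 1223, 1631 and 1389.5 FPKM in IVM and 3278, 4151 and 2504 in IVO libraries. Here the division itself differed, with 39.4%, 52.0% and 46.6% under mt-Nd3 in IVM and 35.7%, 32.3% and 33.5% in IVO libraries. Gm28661 (chromosome 1, 24653966 to 24654646) left 55.7% to 78.0% under mt-Co2, and Gm29216 (chromosome 1, 24654787 to 24655278) with Gm13340 (chromosome 2, 22478115 to 22479659, 97.6% identical) left 71.9% to 80.9% under mt-Co1. The identical copy of mt-Atp6 on chromosome 1 (Gm10925, named after its values were seen) was listed at 0 in every library. Adjacent stretches of 1 alignment were therefore assigned in opposite ways, mt-Atp6 wholly to the mitochondrion and mt-Co3 mostly to the nucleus.

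**Figure D3:**
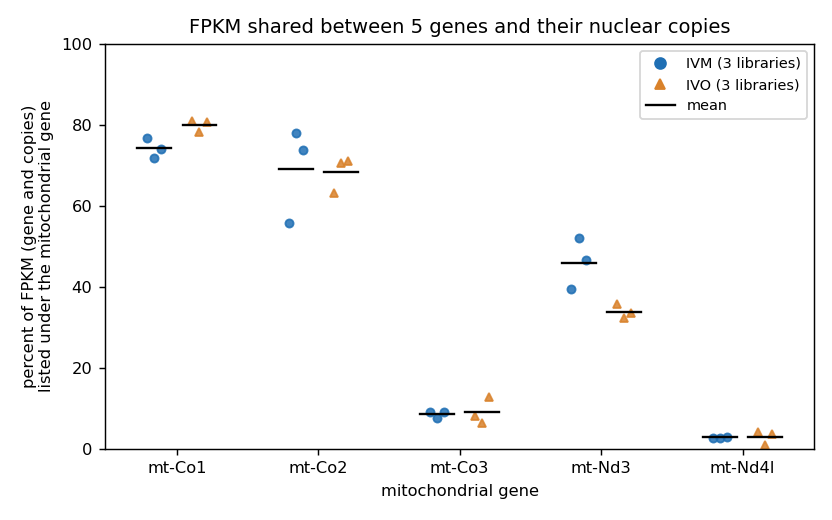
Percentage of the joint FPKM of a mitochondrial gene and its nuclear copies that was listed under the mitochondrial gene, in each library. Circles are IVM, triangles IVO and black lines means of 3 libraries. mt-Co3 and mt-Nd4l lie between 0.899% and 12.7%, and mt-Nd3 is the gene whose percentage is lower in every IVO library, whereas that of mt-Co1 is higher in every IVO library.

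In a calculation added once the values were known, the FPKM of the copies was added per length of the mitochondrial gene, and mt-Co3 moved from the fourth lowest of the mRNAs to the second highest in IVM. Its joint level was 4847, 7357 and 5957 FPKM in IVM and 9577, 8887 and 6317 in IVO libraries, which overlapped (log2FC 0.45, adjusted p = 0.180). mt-Nd4l reached 626, 1071 and 1008 FPKM in IVM and 1728, 1911 and 1206 in IVO libraries, separate between groups but not past the test (log2FC 0.85, adjusted p = 0.0573). mt-Nd3 reached 1976, 3334 and 2549.7 FPKM in IVM and 4959.6, 5975 and 3667 in IVO libraries and passed it (log2FC 0.90, adjusted p = 0.0391). The joint level of mt-Nd4l was 0.621 to 0.683 of that of mt-Nd4, its partner on the same mRNA, in IVM and 0.567 to 0.641 in IVO libraries, where the value under its own name had been 0.00570 to 0.0266. Joint levels from highest to lowest in IVM ran mt-Atp6, mt-Co3, mt-Co2, mt-Cytb, mt-Co1, mt-Nd1, mt-Atp8, mt-Nd3, mt-Nd2, mt-Nd4, mt-Nd4l, mt-Nd5 and mt-Nd6. Neighbours in this order had overlapping ranges over the 3 libraries, apart from mt-Nd3 and mt-Nd2 (1976 to 3334 against 841 to 1812 FPKM) and mt-Nd4l and mt-Nd5 (626 to 1071 against 366 to 597 FPKM). Whether the copies are themselves transcribed was not tested.

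The fragment lengths differed between the groups, and for a short transcript this changes the length by which FPKM is divided. For mt-Atp8, of 204 bases, the inferred effective length (the number of positions where a whole fragment can start) was 23.9 to 31.5 bases in IVM and 9.8 to 12.4 in IVO libraries. Fragments were therefore rebuilt from FPKM without length normalization and scaled by library size (FPM), and mt-Atp8 had 56.4, 110.2 and 74.8 FPM in IVM and 65.5, 97.1 and 62.8 in IVO libraries, which overlapped (log2FC -0.07, adjusted p = 0.876). mt-Nd3, mt-Nd4l and mt-Nd6, of 348, 297 and 519 bases, likewise came to -0.03, -0.00 and -0.03, and with the copies added mt-Nd3 and mt-Nd4l came to 0.41 and 0.18. The effective length is uncertain for transcripts under 300 bases, where only 23.2% to 47.6% of low values fell on whole fragments within 0.1 fragment, against 65.3% to 71.1% for longer ones. IVO1 (23.2%) and IVO3 (27.55%) were little above what evenly spread values would give. The fragment-scale result of mt-Atp8 therefore rests on poorly supported lengths. mt-Atp6, of 681 bases, kept a log2FC of 1.03 (standard error 0.22, adjusted p = 0.00963), mt-Nd4, of 1378 bases, 0.88 (adjusted p = 0.0311) and mt-Cytb, of 1144 bases, 0.83 (adjusted p = 0.0167). The share of all fragments that fell on the 13 mRNAs and their copies was 1.86%, 2.96% and 2.56% in IVM and 3.90%, 4.36% and 3.14% in IVO libraries, still without overlap. Thus the size of the difference depended on the scale, at 2.32 times the IVM mean for the share of FPKM and 1.63 times for the share of fragments. With copies added, these ratios were 2.23 and 1.54.

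**Figure D4:**
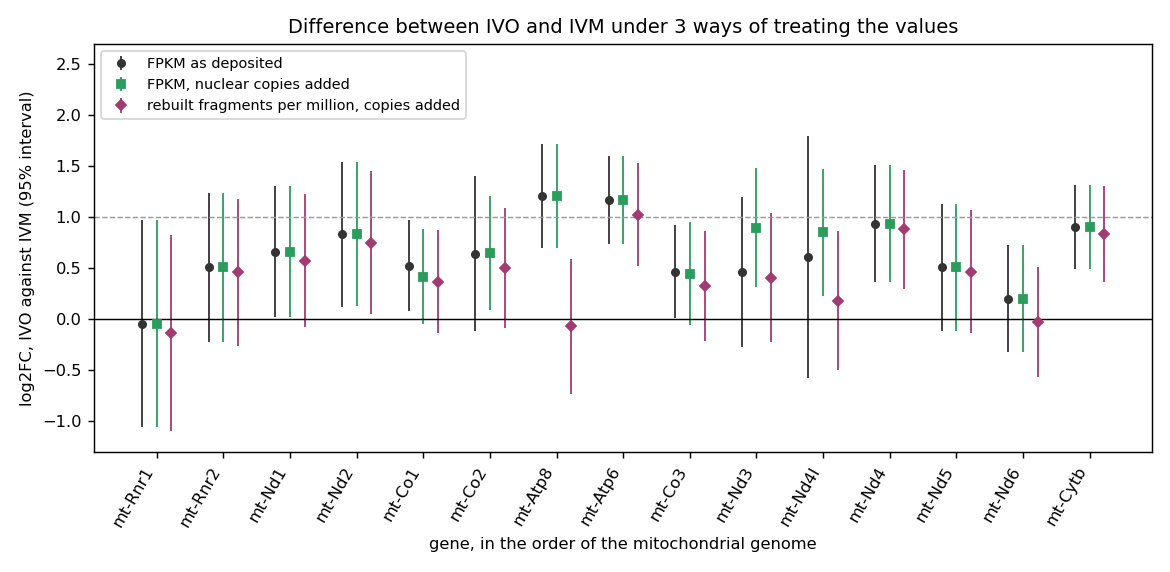
The log2FC of IVO against IVM with its 95% interval from limma, for FPKM as deposited (black), FPKM with nuclear copies added (green) and FPM with copies added (purple). The solid line marks no difference and the dashed line a log2FC of 1. mt-Atp6, mt-Nd2, mt-Nd4 and mt-Cytb have unadjusted intervals above 0 in all 3, mt-Atp8 drops from 1.21 to -0.07, and mt-Rnr1 straddles 0 throughout.

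Shares within the mitochondrial mRNAs do not depend on how the libraries are scaled. Of the summed FPKM of the 13 mRNAs, mt-Atp6 made up 30.4%, 26.6% and 27.4% in IVM and 33.8%, 34.2% and 34.0% in IVO libraries. Its share was 5.88 percentage points larger in IVO, and it was the largest share in every library. The share of mt-Atp8 was also larger in every IVO library (8.46% to 10.6% against 11.1% to 12.4%), and those of mt-Nd3 (3.50% to 4.68% against 2.69% to 3.13%), mt-Nd5 (1.54% to 1.64% against 1.06% to 1.32%) and mt-Nd6 were smaller. The other 8 overlapped. Each of these 5 separate shares gave p = 0.1 when the 3 and 3 libraries were compared in an exact permutation test (two-sided), the smallest value this design allows, over 13 mRNAs compared. Without IVM1, 8 shares did not overlap, but leaving out a library can only keep or raise this count. With the FPKM of the nuclear copies added, the share of mt-Nd3 overlapped, at 6.24% to 6.79% in IVM and 6.38% to 7.34% in IVO libraries.

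With the copies added and counted as fragments, 7 of the 13 shares did not overlap. This removes the split between copies and the division by length, but not the dependence of fragment counts on transcript and fragment length. mt-Atp6 took 16.8%, 15.9% and 15.5% in IVM and 20.2%, 21.4% and 21.3% in IVO libraries, mt-Cytb 13.7% to 15.2% against 15.8% to 17.6%, and mt-Nd4 6.05% to 6.83% against 7.65% to 7.80%. These were larger in every IVO library. The shares of mt-Co3 (13.4% to 14.8% against 10.8% to 12.7%), mt-Nd6, mt-Atp8 and mt-Nd4l were smaller in every IVO library, so mt-Atp8 changed sides with the scale while mt-Atp6 and mt-Nd6 did not. On this scale shorter mRNAs tended to have a lower log2FC, with Pearson's r of 0.46 and Spearman's rho of 0.505 against length. The values were -0.33 and -0.32 for FPKM with copies added, and -0.09 and -0.005 for FPKM as deposited. mt-Atp6 and mt-Co3 are next to each other on the genome and come from neighbouring parts of the same precursor, and the share of one was larger and that of the other smaller in IVO. Shares have a fixed total, so a larger share of one mRNA lowers those of others. The level of mt-Co3 with copies added had a positive log2FC, of 0.45 as FPKM and 0.33 as fragments, neither past the test.

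**Figure D5:**
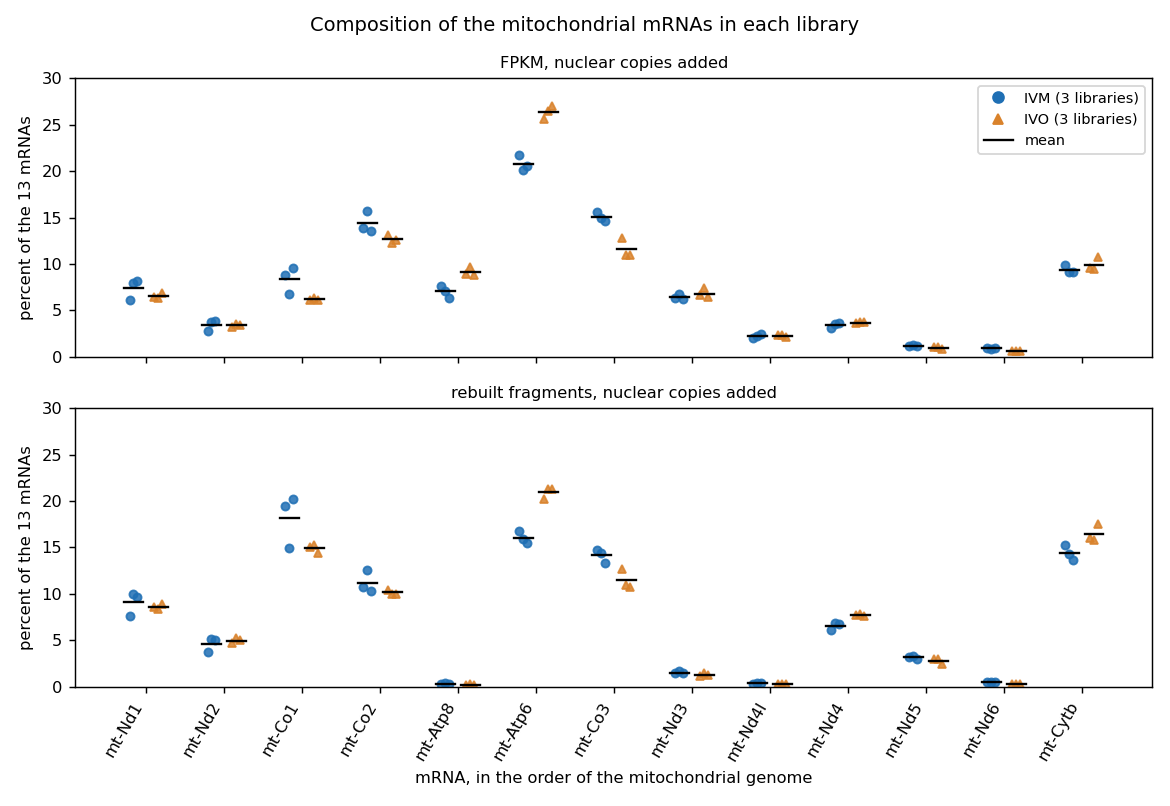
Share of each mRNA in the 13 mitochondrial mRNAs, in percent, for FPKM with copies added (top) and rebuilt fragments with copies added (bottom). Circles are IVM libraries, triangles IVO libraries and black lines means. In both panels mt-Atp6 lies higher and mt-Co3 lower in every IVO library, while mt-Atp8 is higher in the top panel and under 0.4% in the bottom one.

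By strand, 12 mRNAs, both rRNAs and 14 tRNAs belong to one transcript direction, and mt-Nd6 with 8 tRNAs to the other. mt-Nd6 (chrM:13552-14070, minus strand), a membrane subunit of complex I, had 294, 428 and 370.1 FPKM in IVM and 410.4, 515 and 334 in IVO libraries. The groups overlapped, and its log2FC of 0.20 (standard error 0.22, adjusted p = 0.567) was the smallest of the mRNAs, with a 95% interval from -0.33 to 0.72. Relative to the 12 mRNAs of the other strand it was lower in every IVO library, at 1.34%, 1.17% and 1.22% in IVM and 0.732%, 0.824% and 0.737% in IVO libraries. With the copies added the percentages were 0.879% to 0.958% against 0.553% to 0.638%, and as fragments with copies 0.450% to 0.478% against 0.265% to 0.321%. The library kit keeps no strand, so fragments from mt-Nd6 and from the opposite transcript over the same bases cannot be told apart, and this is a comparison of loci rather than of strands. The last bases of mt-Nd5 overlap the end of mt-Nd6. The part of poly(A) tailing in the level of mt-Nd6 relative to the other mRNAs was not tested.

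Position along the genome did not order the differences. Over the 12 mRNAs of the main transcript direction, the log2FC and the start position gave Pearson's r of 0.03 and Spearman's rho of -0.10, and with copies and fragments 0.08 and 0.08. Over the 9 of these that are at least 400 bases long the values were 0.15 and 0.05. These correlations run across genes that share precursors and libraries, and are given as a description. The level in IVM with copies added was likewise only weakly related to the start, at -0.23 and -0.29. The first mRNA after the rRNAs, mt-Nd1, had a log2FC of 0.66 and the last, mt-Cytb, 0.91, with mt-Atp6 in the middle at 1.17.

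The nuclear genes listed for mitochondrial gene expression did not share one direction. They cover transcription, processing and stability of mitochondrial RNA, and also replication and maintenance of mitochondrial DNA (Polg, Polg2, Twnk, Ssbp1, Mgme1 and Top1mt). Of the 38 listed genes, 34 were tested, 14 of them had a positive log2FC, and the median was -0.11 beside -0.30 over all tested genes. Among them 3 were called lower in IVO, against 17.9% of all tested genes, and 2 higher, against 0.606%. Lrpprc, the RNA-binding protein that stabilises mitochondrial mRNAs, had 158, 177 and 135 FPKM in IVM and 51.4, 44.6 and 49.2 in IVO libraries (log2FC -1.67, standard error 0.18, adjusted p = 0.00189). Its partner Slirp fell as well, from 8.32, 7.24 and 8.75 FPKM to 0.93, 1.31 and 3.15 (log2FC -1.78, adjusted p = 0.00924). Tbrg4, a FASTK-family protein of mitochondrial RNA, fell from 5.30, 7.40 and 5.22 FPKM to 1.99, 1.66 and 1.18 (log2FC -1.42, adjusted p = 0.00822). So both members of the mRNA-stabilising complex were lower at the RNA level in the group with the higher sum of mitochondrial mRNAs.

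Mtpap, the mitochondrial poly(A) polymerase, was higher in IVO, at 53.7, 52.0 and 52.5 FPKM in IVM and 115.8, 123 and 90.4 in IVO libraries (log2FC 1.03, standard error 0.18, adjusted p = 0.00909). Its adjusted p stayed under 0.05 in all 22 alternatives, with a log2FC of 0.94 to 1.54. Fastkd2, which binds mt-Rnr2 and some mRNAs, had 1.81, 5.38 and 5.13 FPKM in IVM and 25.8, 13.8 and 7.62 in IVO libraries (log2FC 1.65, standard error 0.49, adjusted p = 0.0482), and its adjusted p was under 0.05 in 13 of 22 alternatives and reached 0.144. Polrmt, the mitochondrial RNA polymerase, had 1.13, 2.18 and 3.57 FPKM in IVM and 0.60, 0.96 and 0.44 in IVO libraries (log2FC -0.93, adjusted p = 0.0947). Tfam, which packages mitochondrial DNA and starts its transcription, had 2.27, 4.97 and 6.37 FPKM in IVM and 2.65, 0.82 and 1.45 in IVO libraries (log2FC -1.05, adjusted p = 0.1004). Neither passed the test. Lrpprc, Slirp, Tbrg4, Polrmt and Tfam kept a negative log2FC, and Mtpap and Fastkd2 a positive one, in all alternatives in which they were tested.

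The nuclear-encoded subunits of complexes I, III, IV and V, which assemble with the mitochondrially encoded ones, mostly had a negative log2FC. Of 84 listed subunit genes 78 were tested, 43 were called lower in IVO against 17.9% of all tested genes, and 0 were called higher by limma, against 0.606%. One gene (Cox5a, named after its values were seen) had an adjusted p under 0.05 with a log2FC of 0.92, under the fold threshold, and it was also the only one higher at an unadjusted p under 0.05. The median of their log2FC was -1.21, beside 0.64 for the 13 mitochondrial mRNAs. All of these fits share the same 6 libraries.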

How the data were processed

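Per the labels and the Methods, full-length cDNA from lysed oocytes was made with the SMART-Seq v4 kit and libraries with the Nextera XT kit. The authors filtered paired-end reads with SeqPrep and Sickle and aligned them to GRCm39. They deposited one FPKM value per gene and library from RSEM. The submitters' processing notes name HISAT2 2.1.0, RSEM 1.3.3 and DESeq2 1.24.0. The deposited group means equal the mean of the 3 libraries within 3.3e-05 and were not used. KEGG columns and assembled loci were not described.

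Groups and replicate numbers came from the sample titles. Differential expression was tested with limma 3.58.1 (lmFit, eBayes with trend) in R 4.3.3 with the group alone in the model, on log2(FPKM + 1) of the 18818 genes whose FPKM averaged at least 1. The log2(FPKM + 1) scale understates changes of low genes. P-values are two-sided and adjusted by Benjamini-Hochberg over all tested genes. They measure the spread between pooled libraries. In simulated data of 18818 genes, of which 200 had a log2 change of 2, the fit called 154 of these and 7 unchanged genes.

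Depth and fragment length were inferred from low FPKM values (worth at most 5.5 fragments) of 25438 genes with 1 annotated transcript. Effective lengths follow from these. On 2 simulated libraries the error was 0.0% for depth. These were drawn from the model used for the inference, with settings on its search grid, so they do not show how well it fits real libraries. Nuclear copies were found with blastn 2.17.0 on GRCm39 (at least 200 bases, 95% identity) and joined to annotated pseudogenes. Tables and figures used Python 3.11.15, pandas 2.3.3, numpy 2.4.6, scipy 1.17.1 and matplotlib 3.10.9.

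All mt- genes are named or counted by class, together with nuclear copies averaging at least 1 FPKM. Of the nuclear expression list, the called genes with the 3 smallest adjusted p-values per direction and Tfam, Polrmt and Lrpprc are named, and of the nuclear subunits only counts are given. Members and lists were chosen with earlier results of these data known. The alternatives tried were a smaller pseudocount (0.1), a filter at a mean of 5 FPKM or none, 4 scalings (median-ratio, quantile, same sum with and without mitochondrial genes), eBayes without trend, a replicate block, Ensembl genes only, rebuilt fragments, removal of the trend with length by lowess (span 0.3), copies added, and leaving out each library. Adding copies by effective length, alone or with median-ratio scaling or fragments, was chosen after seeing the data. No sequence of a mitochondrial protein was used here.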

Additional observations from a re-analysis of the deposited data

How the results depend on the processing

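Of the alternatives for the count of mitochondrial genes called higher (2 with FPKM as deposited), median-ratio scaling gave 5, quantile normalization 4, both same-sum scalings 6, removal of the trend with length 5, rebuilt fragments 1 with or without copies, and copies added with median-ratio scaling 7. At an adjusted p under 0.05 alone (4 as deposited), the counts were 7 with median-ratio or quantile scaling, 8 with either same-sum scaling or with the trend with length removed, 9 with copies and median-ratio scaling, and 2 with no filter on low values, where more genes are tested. Leaving out 1 library gave 2 to 4 and 3 to 4 genes for these counts. The log2FC of mt-Rnr1 turned positive with median-ratio scaling (0.28, also with copies added), quantile normalization (0.37), the same sum (0.29), the same sum of genes outside the mitochondrial genome (0.32) and the trend with length removed (0.28), and ranged from -0.48 to 0.29 with 1 library left out. With rebuilt fragments mt-Atp8 (-0.0718, with or without copies), mt-Nd3 (-0.0288), mt-Nd4l (-0.00321) and mt-Nd6 (-0.0271, with or without copies) turned negative. These changes follow from the calculation, in which FPKM is multiplied by the effective length. That length was smaller in IVO libraries for these short mRNAs, for mt-Atp8 9.8 to 12.4 bases against 23.9 to 31.5 in IVM. Which scale is nearer to the RNA level was not tested. Among the nuclear genes of mitochondrial gene expression, those called higher (2) became 1 with a pseudocount of 0.1, 1 with the replicate block and 5 with quantile normalization, and 0 to 2 with 1 library left out, and those called lower (3) became 1 with a mean FPKM of at least 5, where fewer genes are tested. The shares that did not overlap (5) became 3 without mRNAs shorter than 400 bases, where fewer mRNAs are compared, and 6 to 8 with 1 library left out. Leaving out a library can only keep or raise this count, so the latter range is no check of it. With copies added as FPKM, the share of mt-Nd3 overlapped, and those of mt-Co1, mt-Co2 and mt-Co3 were smaller in every IVO library. As rebuilt fragments without copies, the 5 stayed separate, mt-Atp8 with a smaller share in IVO, and mt-Nd4 was larger in every IVO library. The difference in the mRNA share of each library (1.98 percentage points) became 1.202 as fragments. Same-numbered IVM and IVO libraries did not deviate together (correlations of -0.06, -0.02 and -0.11), so they share only a number. Under the replicate block the counts of mitochondrial genes were 2 and 3, and the adjusted p was 0.0176 for mt-Atp6, 0.0168 for mt-Atp8, 0.0311 for mt-Cytb and 0.0521 for mt-Nd4. The tRNAs are too short for these fragment lengths at any depth reached here.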
